A study of Arabidopsis thaliana with 20 samples.

Results

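A ChIP-seq peak can lie upstream of more than 1 gene at once. Described here are the HSFA1d peaks that the deposited annotation places in the promoters of 2 or more coding genes, called shared promoter peaks below. They were found in each of 6 peak lists by joining the rows of 1 peak and counting the different genes named in its promoter rows, with a stretch of 0.45 Mb on chromosome 2, starting at 3.2 Mb, left out. Of 7502 peaks in the 6 lists, 6854 lay outside that stretch, 4864 of those touched a promoter, and 2156 were shared promoter peaks. The other 2708 promoter peaks were named for 1 gene.

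HSFA1d is a class A1 heat shock factor, one of the transcription factors that start the heat response of Arabidopsis thaliana by binding heat shock elements upstream of chaperone genes and of genes for further heat shock factors. The Arabidopsis genome is compact, and many neighbouring genes are divergent: they stand back to back on opposite strands and are read away from a common upstream stretch. Other neighbours stand in tandem on the same strand, where the promoter of the downstream gene follows or lies within the upstream gene. Binding upstream of a divergent pair can act on either gene, on both or on neither, and a peak list does not tell these apart. No transcript was measured here.

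All samples were whole seedlings 2 weeks old, about 60 per sample, grown at 22 °C under constant light, of an ecotype given as a mix of Columbia-0 (Col-0) and Wassilewskija (Ws). All carried pHSFA1d::HSFA1d-GFP, in which the promoter of HSFA1d drives HSFA1d fused to GFP, and chromatin was precipitated with an antibody against GFP, with input chromatin as the control. The heat series held HS (30 min at 37 °C) and HT0 (time 0), each with 3 ChIP and 3 input samples. The wounding series held WT0 (time 0), W10min, W3h and W24h, taken 10 min, 3 h and 24 h after seedlings were cut many times by razor blade, and each of these had 1 ChIP sample and 1 input. Sequencing reads were concatenated by condition, so there is 1 peak list per condition, no value has a spread between replicates, and no difference between lists was tested. Each library had at least 10 M mapped reads per the labels, and the depth is otherwise unknown.

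The fold enrichment of a peak over input is the authors' value. It is used here only to describe and rank peaks within 1 list, since the lists pool different numbers of libraries and differ in length. The heat lists held 1358 promoter peaks in HS and 617 in HT0. The wounding lists held 1187 in WT0, 1127 in W10min, 383 in W3h and, fewest, 192 in W24h. A strong peak below is one with a q of at most 1e-05.

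Shared promoter peaks numbered 637 in HS, which was 46.9% of its promoter peaks, and 214 in HT0, which was 34.7%. In the wounding series they numbered 535 in WT0 (45.1%), 549 in W10min (48.7%), 154 in W3h (40.2%) and 67 at 24 h (W24h, 34.9%). The annotation therefore gave more than 1 gene to a large share of the promoter peaks of every list. Of the coding genes that a list named through any promoter peak, 65.9% in HS, 53.4% in HT0, 64.2% in WT0, 68.2% in W10min, 61.4% in W3h and 53.9% at 24 h (W24h) were named through shared peaks alone.

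Opposite-strand sets made up most shared promoter peaks in every list. They numbered 503 in HS (79.0%) and 181 in HT0 (84.6%), and 439 in WT0 (82.1%), 441 in W10min (80.3%), 128 in W3h (83.1%) and 55 at 24 h (W24h, 82.1%). Same-strand sets numbered 134 in HS, 33 in HT0, 96 in WT0, 108 in W10min, 26 in W3h and 12 at 24 h (W24h). Part of the opposite-strand share is set by how promoter rows overlap, and the share over all promoters of the genome was not computed. Most peaks named exactly 2 genes, 495 of 637 in HS and 182 of 214 in HT0. Peaks with 3 genes numbered 120 in HS, those with 4 numbered 21, and 1 HS peak named 5 genes.

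**Figure D1:**
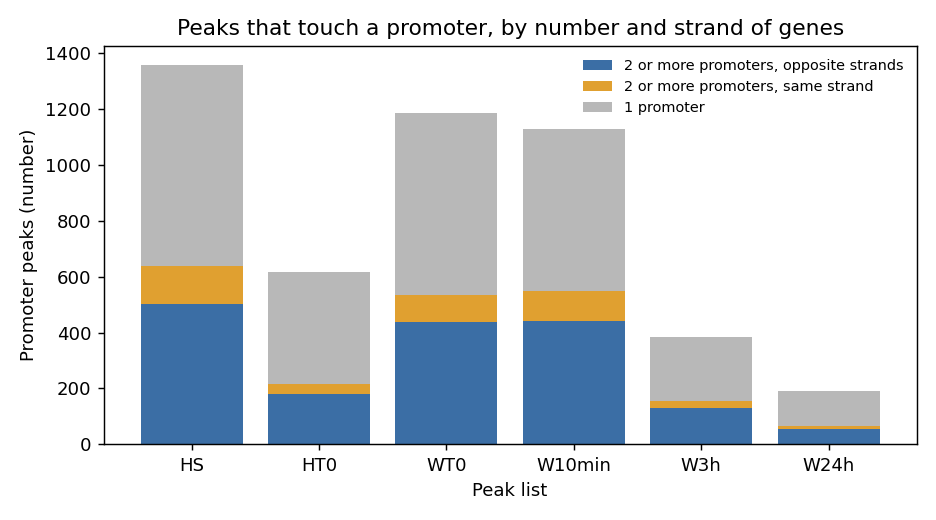
Number of promoter peaks (y axis) in each peak list (x axis), stacked by whether a peak lies in the promoters of 2 or more genes on opposite strands (blue), on the same strand (orange) or in 1 promoter (grey). Opposite-strand sets outnumber same-strand sets in all 6 lists, 503 against 134 in HS and 55 against 12 in W24h.

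The opposite-strand sets had the order of divergent genes. That order is largely set by their definition, since a promoter row lies upstream of its gene. In HS the minus-strand gene lay left of the plus-strand gene in 479 peaks and the order was otherwise in 2, over the peaks whose genes are all in the RefSeq table. The counts were 175 and 1 in HT0 and 420 and 3 in W10min. The genes of an opposite-strand pair were direct neighbours in 276 of 354 HS pairs (78.0%), in the gene order of that table. Same-strand pairs were direct neighbours in 114 of 117 HS pairs. In 66.9% of the HS peaks and 82.2% of the HT0 peaks every base lay in at least 2 promoters. Promoter rows in the files are up to 3001 bp wide, so the count of shared peaks depends on that width.

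Many peaks also ran into a gene. A coding gene body was touched by 50.4% of shared promoter peaks in HS, against 40.8% of peaks in 1 promoter, and by 22.4% in HT0, against 19.9%. In HS, 228 of the 637 shared peaks touched the body of 1 of their own genes, 29 touched more than 1, and 64 touched only a gene that their promoter rows do not name. The remaining 316 touched none.

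Shared promoter peaks were about as strong as peaks in 1 promoter. The median fold was 1.82 against 1.77 in HS and 1.61 against 1.63 in HT0. It was 1.82 in both sets in WT0, 1.96 in both in W10min, 1.82 against 1.80 in W3h and 1.78 in both in W24h. Strong peaks made up 26.1% of shared promoter peaks in HS, against 21.1% of peaks in 1 promoter and 23.4% of all promoter peaks. In HT0 they were 11.7%, against 9.93%, and 10.5% of all promoter peaks. In WT0 they were 5.23% (6.15% of all), in W10min 13.1% (13.2%), in W3h 15.6% (15.9%) and at 24 h 8.96% (11.5%), so these shares lay near those of the list as a whole. Shared peaks in HS were also wider, with a median of 178 bp against 145 bp, while the medians in W10min were 228 and 230 bp.

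**Figure D2:**
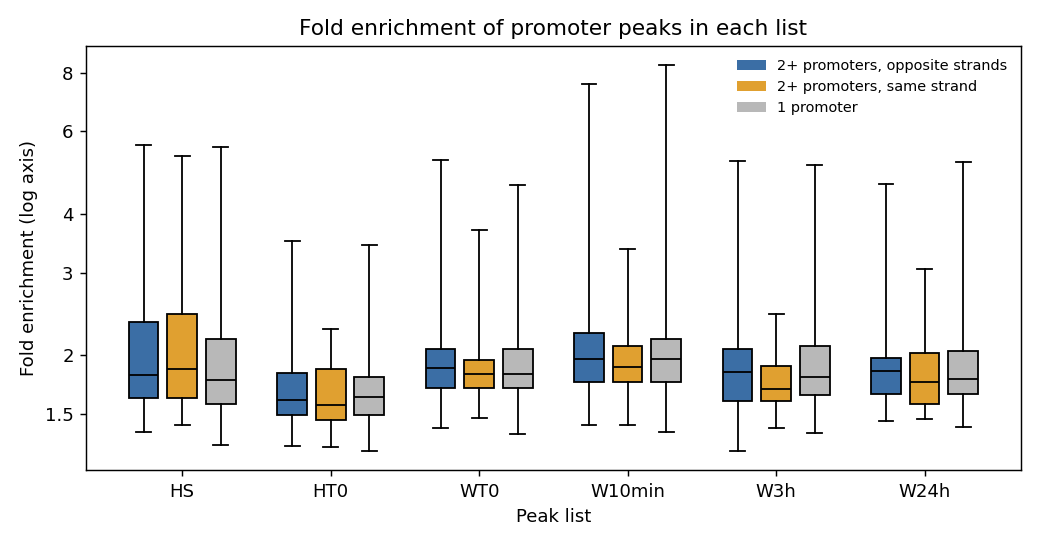
Fold enrichment over input (log axis) in each list for promoter peaks of opposite-strand sets (blue), same-strand sets (orange) and 1 promoter (grey). Boxes show quartiles with the median, and whiskers the lowest and highest peak. The boxes of each list overlap, and the highest same-strand peak lies below the highest opposite-strand peak in every list, 5.30 against 5.60 in HS.

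Of the 7 opposite-strand peaks with the highest fold in HS, 6 named a gene of the chaperone or heat shock factor lists described below. Those lists hold no gene that the RefSeq table gives by identifier alone, such as AT3G09440 or AT1G07400. Whether such genes are chaperone genes was not judged. The peak with the highest fold of all HS promoter peaks, 5.60, lay at chr2:11135070-11136537 (build TAIR10, as are all positions here) between ftsh4 (AT2G26140), a mitochondrial protease gene, and HSFA2 (AT2G26150), a heat-induced heat shock factor that prolongs the response. It was 1468 bp wide and touched both genes. The divergent pair AT3G09440 and AT3G09450 followed with 5.50 at chr3:2904825-2906354. HSP90.1, the heat-induced cytosolic HSP90, shared a peak of fold 5.35 with AT5G52620. That peak, at chr5:21351729-21353142, also touched MEF1 (AT5G52630), which stands between them.

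The next HS peaks on opposite strands held 2 small heat shock proteins, HSP17.6II and HSP17.6A, with AT5G12040 (fold 5.26, chr5:3883795-3885311), and 2 cytosolic HSP90 genes, HSP90.4 and HSP90.3, with AT5G56020 (fold 5.21, chr5:22680996-22681991). Small heat shock proteins hold unfolding proteins in solution, and HSP90 helps client proteins to mature. A fold of 5.16 was shared by the HSP101 and AT1G74320 peak at chr1:27939442-27940898 and by the MGE2, AT4G26790 and AT4G26800 peak at chr4:13486632-13487203. HSP101 is the disaggregase needed for acquired heat tolerance, and MGE2 is a nucleotide exchange factor of mitochondrial HSP70.

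The highest same-strand peaks in HS were nearly as strong. AT1G07400, RABA2b and SMO2-1 shared a fold of 5.30 at chr1:2274520-2275577. MTHSC70-2, a mitochondrial HSP70, shared 5.06 with SDH3-1, a subunit of succinate dehydrogenase, and AT1G30060 shared 5.06 with AT1G30070. The peak assigned to AT2G43018 and PAO2, a polyamine oxidase gene, had a fold of 5.16 at chr2:17888265-17888574 and lay inside PIF4 (AT2G43010), a gene for a phytochrome-interacting factor of warm-temperature growth. A peak at nearly the same place, chr2:17888272-17888567, was in HT0 with a fold of 2.04.

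In HT0 the strongest shared peaks lay at other genes. The highest, fold 3.51 at chr5:3594294-3594461, was placed in the promoters of AT5G11250 and AT5G11280 and lay inside HY5 (AT5G11260), a bZIP factor of light signalling. CSN5A, a COP9 signalosome subunit, with AT1G22930 had 3.15, and AT5G21060 with AT5G21070 had 3.10. AT3G20360, AT3G20362 and AT3G20370 had 2.95, and AT4G27300 with BBX28, a B-box protein gene, had 2.73, as did PID (PINOID, a kinase of auxin transport) with AT2G34655. The 4 highest same-strand peaks reached 2.28 at AT5G43820 and AT5G43822, 2.25 at SAUR24 and AT5G18090, 2.20 at ATR, a kinase of the DNA damage response, and AT5G40830, and 2.04 at the PIF4 site.

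WT0 was led by AT4G27300 and BBX28, with a fold of 5.22 at chr4:13674414-13675296. AT1G65346 and AT1G65352 followed with 4.60, and a second peak named for CYP96A3 with the same pair had 4.04. The AT3G20360 set had 4.00, GI (GIGANTEA, a clock and flowering gene) with AT1G22767 had 3.82, and ECT2, a reader of methylated RNA, with Cpn60beta2, a plastid chaperonin subunit, had 3.70. PID and AT2G34655 also had 3.70. On the same strand BEH4, a homologue of the brassinosteroid factor BZR1, and TBL42 had 3.70. HPA1, a histidine synthesis gene, and AT5G10336 had 3.17, PRR9 and AT2G46787 had 2.73, and LHCA1, a light-harvesting protein, and AT3G54880 had 2.55.

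Of the 5 highest shared peaks in W10min, 4 named a gene of the chaperone or heat shock factor lists described below. The other named AT3G09440 and AT3G09450, which are given by identifier alone and so could not be in those lists. HSP90.4, HSP90.3 and AT5G56020 had a fold of 7.56 at chr5:22681040-22681513, ECT2 with Cpn60beta2 had 7.29, ftsh4 with HSFA2 had 7.22 at chr2:11135260-11135827, and AT3G09440 with AT3G09450 had 7.16. The plastid HSP70 gene cpHSC70-2 with AT5G49900 also had 7.16. LNK1, a coactivator of the circadian clock, with AT5G64180 and AT5G64190 was the sixth, with 5.81. The same-strand sets were lower: AT1G75670 with GH9B7 and PRR9 with AT2G46787 had 3.38 each, HPA1 with AT5G10336 had 3.27 and BEH4 with TBL42 had 3.24.

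In W3h, AT3G09440 with AT3G09450 led with 5.19, followed by the HSP90.4 and HSP90.3 set with 4.69. AT1G65346 with AT1G65352 had 3.92, the AT3G20360 set 3.89 and the CYP96A3 set 3.78. The ftsh4 and HSFA2 peak had 3.34, as did that of CYP84A4, AT5G04347 and ZAT6, a zinc finger factor of stress responses. The same-strand sets were PRR9 with AT2G46787 (2.44), AT2G20550 with AT2G20560 (2.19), AT3G02468 with SAMDC, a polyamine synthesis gene (2.14), and AT5G12980 with CLE40, a signalling peptide of the root tip (2.13).

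In W24h the AT1G65346 and AT1G65352 peak led with 4.64, the AT3G20360 set had 4.22 and the CYP96A3 set 3.56. In W24h and W3h alike, the AT1G65346 and AT1G65352 peak and the CYP96A3 peak touched UBQ13 (AT1G65350). Their promoter rows do not name that gene. AT3G09440 with AT3G09450 had 2.67, PID with AT2G34655 had 2.55, and the ZAT6 set had 2.48. On the same strand HPA1 with AT5G10336 had 3.06, AT5G12980 with CLE40 had 2.18, AT5G05240 with AT5G05250 had 2.16 and AT2G01175 with PAP1 had 1.97. At nearly the same place, the HPA1 peaks of W3h (3.05) and HT0 (2.47) also named AT5G10340 and so counted as opposite-strand. Of the 67 shared peaks in W24h, 16 (23.9%) had a q of 1, against 12.8% of W24h peaks in 1 promoter. In HS that share was 8.79% of shared peaks, against 10.8% of peaks in 1 promoter, and in HT0 22.4% against 20.6%. In WT0 it was 14.2% against 14.9%, in W10min 6.56% against 7.96% and in W3h 13.6% against 10.9%.

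Chaperone and heat shock factor genes were counted over 5 lists of 86 genes that the RefSeq table gives such a symbol. The lists are partial: genes that the table gives by identifier alone are in none of them, so the counts are of listed genes and not of whole families. At least 1 shared promoter peak named 35 of the 86 in HS (40.7%) and 9 in HT0 (10.5%), where 4.45% and 1.44% of all 27444 coding genes were so named. The counts were 14 in WT0 (16.3%), 29 in W10min (33.7%), 16 in W3h (18.6%) and 7 at 24 h (W24h, 8.14%), where the shares of all coding genes were 4.01%, 4.25%, 1.21% and 0.503%. A further 19 genes in HS and 4 in HT0 had only a peak of their own. These lists were written with earlier results of these data known. A rule that took 122 genes by the start of their symbol covers other kinds of gene as well, among them JAZ, ZAT and light-harvesting or photosystem genes. Under it 28 were named in HS and 11 in HT0, then 15 in WT0, 27 in W10min, 14 in W3h and 7 at 24 h (W24h).

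**Figure D3:**
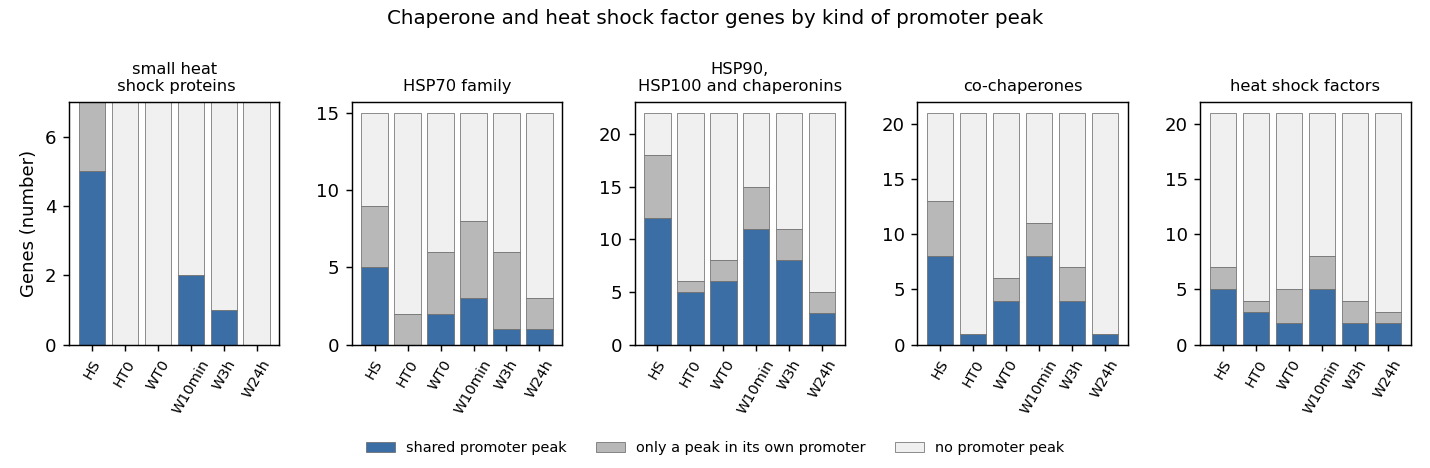
Number of genes (y axis) of 5 chaperone and heat shock factor lists named by a shared promoter peak (blue), only by a peak in 1 promoter (grey) or by no promoter peak (light), in each peak list (x axis). All 7 listed small heat shock protein genes had a promoter peak in HS, 5 of them a shared one, and none had one in HT0, WT0 or W24h. The lists are partial, and genes that the RefSeq table gives by identifier alone are not counted.

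Of the 7 listed small heat shock proteins, 5 had a shared peak in HS. HSP17.6II and HSP17.6A stood on 1 peak (fold 5.26), HSP23.6-MITO had 4.22, HSP22.0 had 2.95 with bbx23, and HSP21 had 2.01. HSP17.4 and HSP18.2 had peaks of their own. Among these 7 genes the HSP17.6II and HSP17.6A peak was the shared one in W10min, with 1.76, and that of HSP23.6-MITO in W3h, with 1.85.

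Of the 15 listed HSP70 family genes, 5 had a shared peak in HS, none in HT0, 2 in WT0, 3 in W10min, and 1 each in W3h and W24h. AT3G09440, which had a shared peak in all 6 lists, is given by identifier alone. It is not among these 15, and its family was not judged. The HS genes were MTHSC70-2 (5.06), cpHSC70-2 (4.67), HSP70B (3.93), cpHSC70-1 with EMB140 (3.00) and HSP70 (1.77). The strongest W10min peak of these 15 genes was not shared: HSC70-1 had a peak of fold 8.30 in its promoter alone, and its shared peak had 1.49. The divergent pair of AT5G49900 and cpHSC70-2 was listed in HS and in all 4 wounding lists, with 2.67 in WT0, 7.16 in W10min, 3.19 in W3h and 2.04 at 24 h (W24h), and was not listed in HT0.

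Of 22 listed genes for HSP90, HSP100 and chaperonins, 12 had a shared peak in HS and 5 in HT0, and 6, 11, 8 and 3 had one in WT0, W10min, W3h and W24h. HSP90.4 and HSP90.3 were named by a peak of each list. HSP101 with AT1G74320 had 5.16 in HS and was not listed in HT0, and had 1.94 in WT0, 3.44 in W10min and 1.70 in W3h. CPN10, the small partner of the mitochondrial chaperonin, had 4.91 in HS and 1.61 in HT0, and CPN60A, a plastid chaperonin subunit, had 3.93 in HS with BLH8 and was not listed in HT0. In WT0, CPN60A had 2.31 with BLH8 and CPN10 was not listed. CHL-CPN10, a plastid co-chaperonin, had 1.67 in HS and 1.68 in HT0, and 3.09 in WT0 and 2.23 in W10min.

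Co-chaperones with a shared peak numbered 8 of 21 listed in HS, 1 in HT0, 4 in WT0, 8 in W10min, 4 in W3h and 1 at 24 h (W24h). The HS peaks of MGE2 (5.16), BOB1 with FOP1 (5.01), FES1A, an HSP70-binding protein (4.96), BAG6 (4.37), HOP2, which links HSP70 to HSP90 (4.27), and J2, a DnaJ protein (4.08), were not matched by a shared peak of the same gene in HT0. In WT0, MGE2 had 2.18 and BOB1 had 2.24 on shared peaks, and FES1A, BAG6, HOP2 and J2 had none. The HT0 gene was FES1C, with 1.96 in HT0 and 1.67 in HS.

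Among 21 listed heat shock factor genes, 5 had a shared peak in HS (HSFA1D, HSFA2, HSFA7B, HSFB1 and HSFB2A) and 3 in HT0 (HSFA1D, HSFA2 and HSFA4A). The same 5 as in HS were named in W10min, and HSFA1D and HSFA2 in WT0, W3h and W24h. HSFA7B had 3.39 in HS and 2.09 in W10min, and HSFB2A, on a same-strand peak with AT5G62030, had 3.14 in HS and 2.23 in W10min. HSFA1D is the gene whose promoter and coding sequence the transgene carries. Its highest peak with AT1G32337 in each list had folds of 1.99 in HS and 1.71 in HT0, and 1.88, 2.30, 1.98 and 1.47 in WT0, W10min, W3h and W24h. A list can hold more than 1 peak of this pair, as in W3h, where another had 1.25. The lists cannot separate the transgene from the native locus.

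The partner genes were mostly outside the chaperone and heat shock factor lists, which are partial. The 48 HS shared peaks that named a listed chaperone or heat shock factor gene also named 45 genes outside these lists, and 3 of the peaks named 2 list genes. Of these 48 peaks, 43 were on opposite strands (89.6%, against 79.0% of all shared peaks) and 29 were strong (60.4%, against 26.1%). Their median fold was 3.07, against 1.82, and their median width 464 bp, against 178 bp. In W10min, 15 of 27 were strong (55.6%, against 13.1%), with a median fold of 2.97, against 1.96.

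Where such a peak ran into a gene, it was mostly the listed gene. In HS 20 of the 48 peaks touched the body of the list gene and not of the partner, 2 touched the partner and not the list gene, 9 touched both and 17 neither. In W10min the counts were 19, 2, 2 and 4 of 27 peaks, and in WT0 9, 0, 2 and 2 of 13. The peaks of HSP90.1 and Cpn60beta2 in HS are of the first kind, and that of HSFA2 touched both genes.

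Most HS shared peaks had no counterpart in HT0. An overlap of at least 1 bp with an HT0 peak was found for 107 of 637 HS shared peaks (16.8%), against 20.2% of HS peaks in 1 promoter and 18.6% of all HS promoter peaks. Among strong HS shared peaks 137 of 166 met no HT0 peak (82.5%, against 82.4% of all strong promoter peaks). Shared peaks at chaperone and heat shock factor genes were no exception: 39 of 48 met no HT0 peak (81.2%). A peak of WT0, the time 0 list of the wounding series, was met by 149 of 637 HS shared peaks (23.4%). That share was 22.0% of all HS promoter peaks. Among strong HS shared peaks, 104 of 166 met no WT0 peak (62.7%, against 61.9% of all strong promoter peaks).

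In the wounding series, 164 of 549 W10min shared peaks met a WT0 peak (29.9%), against 35.3% of peaks in 1 promoter and 32.7% of all promoter peaks. The share was 72 of 154 in W3h (46.8%, and 50.4% of all) and 33 of 67 in W24h (49.3%, and 46.9% of all). Of the strong W10min shared peaks, 25 of 72 met no WT0 peak (34.7%, against 30.9% of all strong promoter peaks). That count was 4 of 24 in W3h (19.7% of all strong promoter peaks) and 0 of 6 in W24h (4.55%). Of the shared peaks at chaperone and heat shock factor genes, 15 of 27 in W10min, 8 of 16 in W3h and none of 6 in W24h met no WT0 peak.

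**Figure D4:**
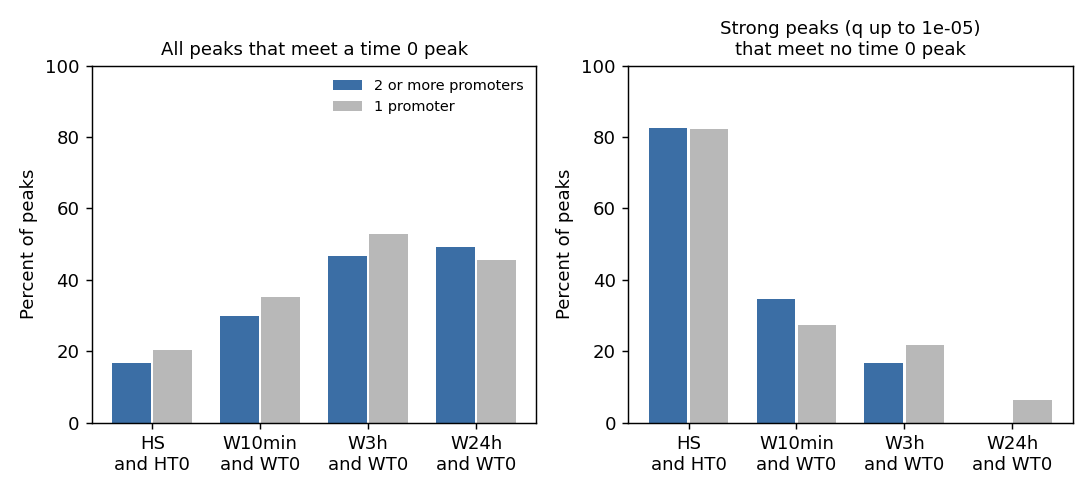
Left, percent of peaks of a treated list that overlap a peak of the matched time 0 list; right, percent of strong peaks (q of at most 1e-05) that overlap none, for shared promoter peaks (blue) and peaks in 1 promoter (grey). In HS 82.5% of strong shared peaks and 82.2% of strong peaks in 1 promoter met no HT0 peak, and in W10min 34.7% and 27.3% met no WT0 peak.

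The heat and the early wounding lists had shared peaks in common. Of HS shared peaks, 215 of 637 met a W10min peak (33.8%, against 30% of all HS promoter peaks). Of W10min shared peaks, 201 of 549 met an HS peak (36.6%, against 35.1% of all). Exact sets of genes in common numbered 194, which was 34.0% of the 570 sets of HS and 36.4% of the 533 sets of W10min. HS and HT0 had 103 sets in common, 18.1% of those in HS and 53.4% of those in HT0. W10min and WT0 had 167, 31.3% of those in W10min and 32.6% of those in WT0. Read from the shorter list, 104 of 214 HT0 shared peaks met an HS peak (48.6%), against 35.2% of HT0 peaks in 1 promoter and 39.9% of all HT0 promoter peaks. Of the HT0 shared peaks 46.3% met a WT0 peak, against 30.8% of HT0 peaks in 1 promoter and 36.1% of all. Both lists are time 0, and the differences were not tested.

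Over all 6 lists, shared promoter peaks named 1306 different gene sets, 1046 on opposite strands and 260 on the same strand. Of these, 901 (69.0%) were in 1 list, 214 in 2, 111 in 3, 52 in 4, 12 in 5 and 16 in 6. The share in 1 list was 68.9% for opposite-strand sets and 69.2% for same-strand sets, and 66.0% of the 1522 genes with a peak in 1 promoter were likewise in 1 list. Sets in 4 or more lists were 6.69% of opposite-strand sets and 3.85% of same-strand sets.

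Of the 16 sets in all 6 lists, 15 were on opposite strands, and AT5G12980 with CLE40 was on the same strand. Within the HS list 3 sets led: ftsh4 with HSFA2 (5.60), AT3G09440 with AT3G09450 (5.50), and ECT2 with Cpn60beta2 (4.72). In HT0 the same 3 sets had folds of 2.09, 1.72 and 1.53, below the 2.95 of the AT3G20360 set and the 2.73 of PID with AT2G34655. In WT0 their folds were 3.21, 3.21 and 3.70, in W10min 7.22, 7.16 and 7.29, in W3h 3.34, 5.19 and 2.94, and in W24h 1.97, 2.67 and 2.36. They were the 3 highest of the 16 sets in HS and in W10min. In HT0, WT0, W3h and W24h at least 1 other set stood above some or all of them.

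APX1, the cytosolic ascorbate peroxidase that removes hydrogen peroxide, shared its peak with ATMPK13, a MAP kinase, and AT1G07885. That peak had 3.34 in HS and 1.90 in HT0, and 2.55, 2.84, 2.34 and 1.97 in WT0, W10min, W3h and W24h. Regulators of other kinds were also among the sets in all 6 lists. WRKY22, a defence factor, with AT4G01245 had 2.41 in HS and 1.79 in HT0. ERF4, a repressor of ethylene responses, with AT3G15200 had 1.92 in HS and 1.68 in HT0. PFT1, the MED25 subunit of the Mediator complex, with AT1G25550 had 1.62 in HS and 1.38 in HT0. The remaining sets in all 6 lists were those of TPS7 with ARA-2, HKL1 with AT1G50450, NAC062 with AT3G49540 and AT3G49550, AT5G11700 with AT5G11710, AT1G65346 with AT1G65352, and HSFA1D.

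**Figure D5:**
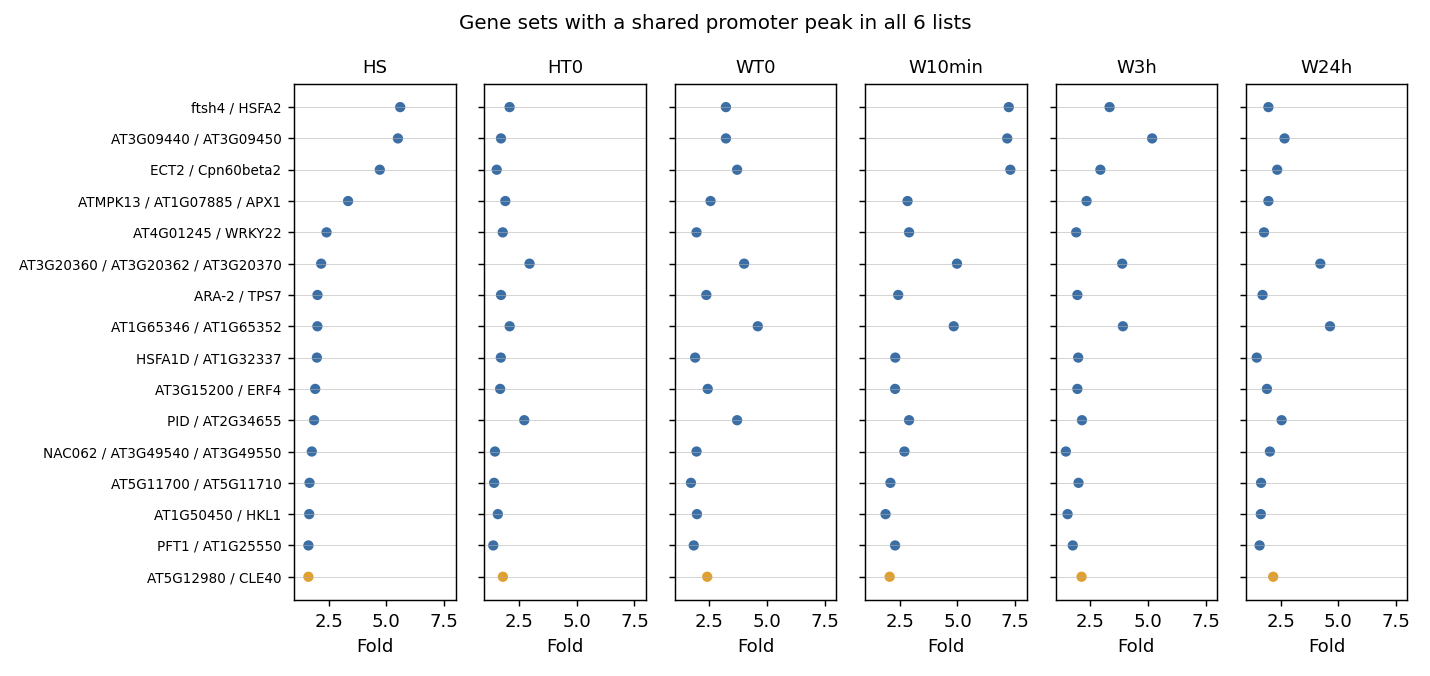
Fold enrichment (x axis, linear) of the highest peak of each of the 16 gene sets named in all 6 lists (rows), 1 panel per list, blue for opposite and orange for the same strand. In HS and W10min the sets of HSFA2, AT3G09440 and Cpn60beta2 stand above the other 13, with 4.72 to 5.60 in HS and 7.16 to 7.29 in W10min.

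Among the 12 sets in 5 lists, 10 were missing from 1 of the lists HT0 and W24h, and 2 were missing from HS. Of these 12, AT5G49900 with cpHSC70-2 was the set missing from HT0. The pair AT4G27300 with BBX28 had a peak of fold 2.73 in HT0, 5.22 in WT0, 2.70 in W10min, 2.39 in W3h and 1.91 at 24 h (W24h), and none in HS. BUG22 with LNK3, a relative of LNK1, had 1.57 in HT0, 2.61 in WT0, 2.77 in W10min, 1.80 in W3h and 1.85 at 24 h (W24h), and was also not listed in HS. A missing peak in a list says only that none was listed at that pooled depth.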

How the data were processed

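Chromatin immunoprecipitation and sequencing with an antibody against GFP was done in 10 ChIP and 10 input samples. Bowtie2, SAMtools and MACS2 were used with build TAIR10, per the submitters' processing notes, with no tool version stated there. Per the labels, reads were concatenated, so the 6 deposited peak lists pool the replicates of a condition. Per the file headers, the authors deposited for every peak a fold enrichment, a ratio over input, and a significance as −log10 of q.

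Starts count from 0, and 1 was added. Rows of equal fold and q that overlapped or had a gap of at most 1 base were joined into peaks. This step rebuilt 2000 of 2000 peaks in data simulated for it. The simulated peaks lay apart, with almost no tied values and no gap between their rows. The check therefore covers the joining code and not the deposited rows. The narrowest shared peak after joining was 5 bp wide, in WT0. A peak was shared when its promoter rows named at least 2 genes, and opposite when those genes were on both strands. Gene names and gene order were taken from the RefSeq table for TAIR10.1, whose coordinates were not printed, and common names stand in for some symbols. Peaks met at an overlap of at least 1 bp. There are no replicate lists, so no test was made, and all counts, medians and shares are descriptions. Depth per library is unknown beyond the floor of 10 M mapped reads.

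Peaks named in the text are the 6 highest by fold on opposite strands and the 4 highest on the same strand in each list, ties included, sets in 5 or 6 lists, and peaks of listed chaperone and heat shock factor genes. Sets in 4 lists are counted, and only a few are named. The members and the gene lists were chosen with earlier results of these data known. The gene lists planned for this work were not used here, and the planned substitute, genes chosen by the start of their RefSeq symbol, is given beside 5 hand-written lists that were added later. Alternatives were q limits, joining, overlap, peak width, promoter rows over the same base, and keeping the chromosome 2 stretch. Heat shock elements were not analysed here. Python 3.11.15, pandas 2.3.3, numpy 2.4.6, scipy 1.17.1 and matplotlib 3.10.9 were used.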

Additional observations from a re-analysis of the deposited data

How the results depend on the processing

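With only peaks of q up to 0.05, shared promoter peaks numbered 341 in HS and 79 in HT0, and 263, 284, 83 and 29 in WT0, W10min, W3h and W24h, and with q up to 1e-05 they numbered 166, 25, 28, 72, 24 and 6 in the same order. Joining only overlapping rows, requiring 2 promoters over the same base or keeping the chromosome 2 stretch moved no such count by more than 1.5 times. The opposite-strand share went to 84.2% in W10min at q up to 0.05, to 75% in WT0 and 95.8% in W3h at q up to 1e-05, and to 79.0% in HT0 with the chromosome 2 stretch kept. The median fold of shared peaks minus that of peaks in 1 promoter went to 0.151 (q up to 0.05) and 0.147 (q up to 1e-05) in HS, to 0.127 (q up to 0.05) and 0.0373 (chromosome 2 stretch kept) in HT0, where it was -0.0204, to -0.135 (q up to 1e-05) and -0.0675 (peaks up to the median width) in W10min, where it was 0, and to 0.506 in W24h at q up to 1e-05, over 6 shared peaks.

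The share meeting time 0 fell in HS to 8.48% under a reciprocal overlap of 50%, 10.6% at q up to 0.05 in both lists and 5.42% at q up to 1e-05. In W10min it was 21.5% under the reciprocal overlap and 20.8% at q up to 1e-05, and in W24h 34.3%, 65.5% and 100% under those 3 alternatives. Counting any pair of genes on a peak, an alternative chosen after seeing the data, gave 129 pairs in 4 or more lists and 25 in all 6, against 80 and 16 exact sets. Of genes chosen by symbol, which also take in JAZ, ZAT and photosynthesis genes, 23.0% in HS had a shared peak, 9.02% in HT0, 22.1% in W10min and 11.5% in W3h. With the hand-written lists, which hold chaperone and heat shock factor genes alone and were added after seeing the data, the shares were 40.7% in HS, 33.7% in W10min and 18.6% in W3h. With q up to 0.05, also added later, the symbol rule gave 1.64% in HT0. A q limit leaves a smaller number of peaks, and the cause of these differences was not tested.

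No paired analysis was possible because the HS and HT0 lists each pool their replicates and the wounding conditions have 1 ChIP sample each, and no replicate was left out for the same reason. W24h has 6 strong shared peaks, so its shares at that limit rest on few peaks. HS and HT0 pool 3 ChIP samples and the wounding lists hold 1, so list lengths are not compared between the series. The count of heat shock elements was not run.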

Other observations

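Genes of the circadian clock were also named by shared promoter peaks, a list of 22 genes chosen after its values were seen. Shared peaks named 6 of them in HS and 8 in HT0, where 4.45% and 1.44% of all coding genes were so named, and 9 in WT0, 7 in W10min, 5 in W3h and 2 at 24 h (W24h), where the shares of all coding genes were 4.01%, 4.25%, 1.21% and 0.503%. PRR7, a clock repressor that shared its peak with RHL2, was named in all 6 lists, with folds of 2.90 in HS and 1.79 in HT0, and of 2.37 in WT0, 3.11 in W10min, 1.85 in W3h and 1.91 at 24 h (W24h). LUX, an evening complex gene, with RDUF1 had 1.62 in HS and 1.64 in HT0, and 2.79 in WT0, 2.30 in W10min and 1.90 in W3h. GI had 1.87 in HS and 1.53 in HT0 on its shared peak with AT1G22767, and 3.82 in WT0 and 1.76 in W10min, and it had peaks of its own in every list. LNK4 was named in HT0 (1.68), WT0 (2.06) and W10min (1.89).

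Some shared peaks touched the body only of genes that their promoter rows do not name. There were 64 in HS and 15 in HT0, and 36, 42, 9 and 13 in WT0, W10min, W3h and W24h. Beside those at PIF4 and HY5, one example chosen after its values were seen is the peak named for COR15B and AT2G42550, which touched COR15A (AT2G42540), a cold-regulated gene, with a fold of 2.32 in W24h and 2.43 in W10min.

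The peak named for CYP96A3, AT1G65346 and AT1G65352 touched UBQ13 (AT1G65350), a polyubiquitin gene, and AT1G65346, and was the widest shared peak of each wounding list. It spanned 3442 bp in WT0, 3462 bp in W10min, 3448 bp in W3h and 3444 bp in W24h, against medians of 217, 228, 235.5 and 212 bp for shared peaks of those lists. Its start moved by at most 19 bases between those 4 lists, with chr1:24272598 in W10min and chr1:24272617 in W24h, and the smaller peak beside it had the highest fold of all shared peaks in W24h, 4.64.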
